A study of Mus musculus with 9 samples.

Results

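The complement system was followed in mouse uterus through 8 genes fixed by symbol, the activating components *C3*, *C2*, *C4b*, *Cfb* and *Cfp* and the inhibitors *Cfi*, *Cd55* and *Cd59a*. All 8 were found among the 31274 entries of the deposited FPKM table (a level scaled to the length of the gene and to the size of the library), and all 8 were among the 14728 genes tested. RNA-seq had been performed on whole uteri collected on day 4.5 of pseudopregnancy, when the uterus is receptive and, after mating with vasectomized males, holds no embryo. The control group was 4 Wnk1f/f mice, which carry *Wnk1* alleles with loxP sites on either side of an exon. The second group was 5 Wnk1d/d mice, which carry the same alleles together with a *Cre* gene driven by the progesterone receptor (PGR), so that the exon is lost in PGR-expressing cells. Cells of the uterus without PGR, such as immune and endothelial cells, keep the gene. All mice were C57BL/6 virgin females aged 6 to 10 weeks, and each library came from 1 mouse.

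Complement is a cascade of plasma and tissue proteins that marks cells and particles and can open pores in their membranes. All of its routes meet at C3, which is cut by convertases, short-lived proteases assembled from C4b and C2 in the classical and lectin routes and from C3 itself and factor B (*Cfb*) in the alternative route. Host cells are guarded by inhibitors that take convertases apart (*Cd55*), cut their fragments (*Cfi*) or block the pore (*Cd59a*). The liver makes most of the plasma proteins, and uterine epithelium is known to make C3 under the control of estrogen.

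*Wnk1*, the targeted gene, had 45.3 ± 1.62 FPKM (SD, n = 4) in Wnk1f/f and 31.2 ± 1.62 FPKM (SD, n = 5) in Wnk1d/d uteri. These values are for the whole gene and not for the removed exon, so they do not measure how completely it was lost. The authors reported a larger fall of WNK1 protein in whole uteri. Wnk1f/f replicate 4 stood apart by genes of hepatocytes: the summed FPKM of 22 liver markers was 310 in this library and 28.9 to 30.2 in the other controls, and 17 of the 22 had their highest value there. In the Wnk1d/d libraries the same sum was 35.5 to 112. In Wnk1d/d replicate 4 a single entry took 70.3% of the summed FPKM, yet the median log2 value of the tested genes lay between 3.79 and 3.82 in all 9 libraries. Absolute depth cannot be read from FPKM. In whole tissue, fewer cells of a type and less RNA per cell cannot be told apart.

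Of the 8 complement genes, 3 rose in Wnk1d/d uteri and 0 fell. The genes that rose were *Cfb* (3.93-fold), *C3* (2.74-fold) and *Cfi* (2.73-fold), ratios of mean FPKM. A gene was counted as changed when its limma adjusted p was under 0.05 and its ratio of means at least 1.5 in either direction, which held for 10.3% of all genes tested, with 5.09% of all genes higher and 5.18% lower in Wnk1d/d uteri. The other 5 complement genes did not pass, and 0 of the 8 were lower at an unadjusted limma p under 0.05. By role, 2 of 5 activating components and 1 of 3 inhibitors rose. The median log2 fold change was 0.30 over the activating components, -0.17 over the inhibitors and 0.00 over all genes tested. The libraries of the genotypes did not overlap for 2 of the 8, *Cfb* and *Cfi*, as for 9.27% of all genes in this direction, and 0 of the 8 were lower without overlap (10.6% of all genes).

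**Figure D1:**
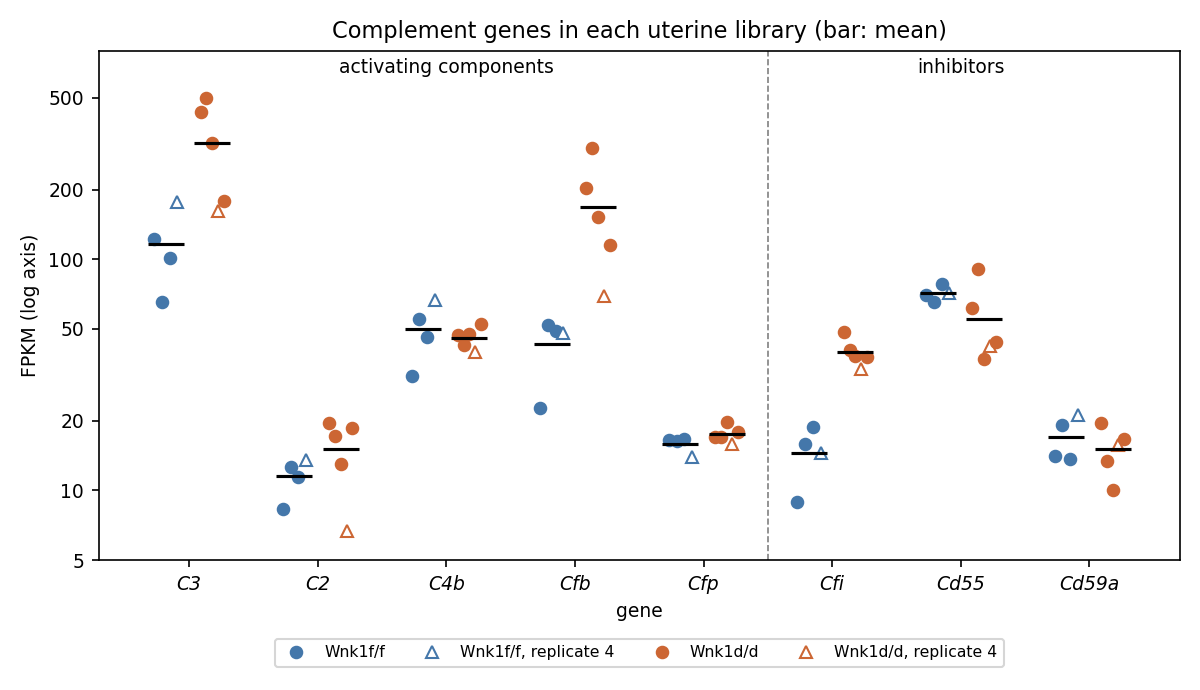
FPKM of the 8 complement genes (log axis) in each library of Wnk1f/f (blue, n = 4) and Wnk1d/d (orange, n = 5) uteri. Bars are means and open triangles are replicate 4 of each genotype. *Cfb* and *Cfi* are higher in every Wnk1d/d library than in any control, *C3* overlaps only through Wnk1f/f replicate 4 (177 FPKM) and Wnk1d/d replicate 4 (161 FPKM), and *C4b*, *Cfp* and *Cd59a* lie at similar levels in both genotypes.

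*C3* (chromosome 17, 57203970 to 57228136, minus strand, mm10) encodes the central protein of the cascade and was the most abundant of the 8 transcripts in both genotypes. In the controls it had 122, 65.7, 101 and 177 FPKM, in the order of replicates 1 to 4. In the Wnk1d/d uteri it had 434, 499, 320, 161 and 179 FPKM in replicates 1 to 5. Thus 4 of 5 Wnk1d/d libraries were above all controls, and Wnk1d/d replicate 4 lay below Wnk1f/f replicate 4, the library with the liver transcripts. Means were 117 ± 46.7 FPKM (SD, n = 4) and 319 ± 150 FPKM (SD, n = 5), and *C3* rose (log2 fold change 1.39, standard error, SE, 0.39, adjusted p = 0.033 by limma). By an exact two-sided permutation test of the log2 values p was 0.0397. Without Wnk1f/f replicate 4 the ratio of means was 3.31, the genotypes no longer overlapped, and the limma adjusted p was 0.037. Leaving out any 1 of 5 other libraries (Wnk1f/f replicates 1, 2 or 3, Wnk1d/d replicates 1 or 3) gave an adjusted p of 0.06 to 0.078, above the threshold, with log2 fold changes of 1.15 to 1.44. The highest *C3* among the Wnk1d/d uteri was 3.09 times the lowest.

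Promoter sequences were taken from RefSeq (GRCm38.p6, the assembly of mm10) for 4 of the 8 genes, and from the same table for *C4bp*, an inhibitor outside the 8 that also rose. The 250 bases before the start are shown for *C3* (chr17:57228137-57228386, minus strand), for *C4bp* (chr1:130661619-130661868, minus strand) and for *Cd55* (chr1:130462745-130462994, minus strand), because the first pair rose and the third, the most abundant of the 3 inhibitors in the controls, did not. Capitals mark every match, on either strand, to any of 8 motifs. The core promoter motifs searched were TATAAA and, as the element usually bound by Sp1, GGGCGG. Of the estrogen response element, one arm (GGTCA) was searched, and also that arm together with its reverse complement 3 bases apart. The NF-kB motif was reduced to its outer letters, GGG and then, after any 5 bases, CC. The C/EBP motif was TTGCNNAA and the STAT motif TTCNNNGAA. The interferon-stimulated response element was a pair of GAAA with any 2 bases between them.
C3: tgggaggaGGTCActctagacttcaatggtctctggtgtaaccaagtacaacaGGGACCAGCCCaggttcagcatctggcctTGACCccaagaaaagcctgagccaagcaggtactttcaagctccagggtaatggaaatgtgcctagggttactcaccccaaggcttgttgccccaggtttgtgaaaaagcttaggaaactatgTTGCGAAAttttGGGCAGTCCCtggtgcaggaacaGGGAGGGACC
C4bp: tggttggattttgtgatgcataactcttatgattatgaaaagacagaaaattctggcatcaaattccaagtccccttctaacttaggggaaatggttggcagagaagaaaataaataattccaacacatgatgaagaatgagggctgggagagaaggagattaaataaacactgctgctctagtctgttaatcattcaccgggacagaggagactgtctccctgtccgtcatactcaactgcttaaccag
Cd55: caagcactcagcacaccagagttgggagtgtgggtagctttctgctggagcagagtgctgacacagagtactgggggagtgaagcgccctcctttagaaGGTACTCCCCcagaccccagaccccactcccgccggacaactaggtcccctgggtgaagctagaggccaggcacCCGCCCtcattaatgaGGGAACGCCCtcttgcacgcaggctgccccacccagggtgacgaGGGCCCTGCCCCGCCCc

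The *C3* window held GGTCA 242 and 168 bases before the start, letters that occur in 35.2% of all 32851 promoter windows of this length. It held TTGCNNAA 45 bases before the start, found in 9.56% of windows. The NF-kB letters matched, in part on both strands, at 197, 196, 33 and 10 bases before the start and is found in 45.8% of windows. The *C4bp* window held 0 matches to any of the 8 motifs. The *Cd55* window held GGGCGG 77 and 7 bases before the start (32.7% of windows), and several overlapping matches to the NF-kB letters. These matches are descriptions of letters and not of binding.

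Factor B, encoded by *Cfb* (chromosome 17, 34856374 to 34862518, minus strand), is the protease precursor of the alternative convertase. Its FPKM was 22.8, 52.3, 49.0 and 48.2 in the controls and 205, 303, 153, 69.2 and 115 in Wnk1d/d replicates 1 to 5. Every Wnk1d/d library was above every control, and the lowest of them, replicate 4, was 1.32 times the highest control. *Cfb* had the largest fold change of the 8 genes, from 43.0 ± 13.6 FPKM (SD, n = 4) to 169 ± 90.01 FPKM (SD, n = 5) (log2 fold change 1.85, SE 0.41, adjusted p = 0.015 by limma, exact permutation p = 0.0159). Its call held in each of the 9 fits that left out 1 library, with an adjusted p of 0.01 to 0.037. The order of the 5 Wnk1d/d libraries by *Cfb* (replicates 2, 1, 3, 5 and 4, from the highest) was also their order by *C3*.

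*C2* lies next to *Cfb* on the same strand (34862604 to 34898265) and encodes the corresponding protease precursor of the classical and lectin convertase. It had 8.28, 12.7, 11.4 and 13.6 FPKM in the controls and 19.7, 17.3, 13.0, 6.71 and 18.6 FPKM in the Wnk1d/d uteri. The genotypes overlapped, with 3 Wnk1d/d libraries above all controls and replicate 4 below all of them. *C2* missed the threshold (log2 fold change 0.30, SE 0.28, adjusted p = 0.46 by limma). Without Wnk1d/d replicate 4 the log2 fold change was 0.54 and the adjusted p 0.059, within a range of 0.059 to 0.72 over all alternatives. GENCODE M21 also has a longer gene, *Gm20547*, that runs through both loci and covers 79.5% of the exon bases of *Cfb* and 42.8% of those of *C2*. It is not named in the deposited table, so how its fragments were assigned is not known. Genes on the opposite strand overlap 4.16% of the exon bases of *C2* (*Zbtb12*) and 2.1% of those of *Cd55*, and the library kit is not stated to mark strand.

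*C4b*, on chromosome 17 (34728380 to 34743882, minus strand), encodes the part of the classical convertase that binds to the target. It had 31.3, 55.1, 46.2 and 66.5 FPKM in the controls and 47.3, 42.5, 47.5, 39.7 and 52.3 FPKM in the Wnk1d/d uteri. All 5 Wnk1d/d libraries fell inside the range of the controls (log2 fold change -0.07, SE 0.19, adjusted p = 0.81 by limma), and without Wnk1f/f replicate 4 the sign turned (log2 fold change 0.08). The value is uncertain because of a near copy, *C4a*: 96.1% of 5204 aligned bases of the *C4b* coding sequence are the same in *C4a*, and 23.5% of the 75-base windows of the *C4b* transcript occur there without a mismatch. *C4a* itself had 5.96 to 14.01 FPKM in Wnk1f/f and 6.02 to 10.6 FPKM in Wnk1d/d uteri (limma adjusted p = 0.75). The 90 bases with the most differences (13) in the longest stretch that aligned without a gap are shown from both GENCODE M21 transcripts, 5′ to 3′ (coding bases 1120 to 1209 of *C4b*), with the differing bases in capitals, since such positions are what separates the fragments of these genes.
C4b: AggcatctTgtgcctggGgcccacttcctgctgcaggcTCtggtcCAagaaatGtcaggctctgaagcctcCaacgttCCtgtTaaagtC
C4a: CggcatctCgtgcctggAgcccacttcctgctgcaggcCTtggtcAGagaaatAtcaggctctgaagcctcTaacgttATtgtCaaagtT

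Properdin, encoded by *Cfp* (X chromosome, 20925454 to 20931555, minus strand), stabilizes the alternative convertase. Its levels varied little in either genotype, with 16.6, 16.3, 16.8 and 13.9 FPKM in the controls and 17.0, 17.1, 19.9, 15.9 and 17.9 FPKM in the Wnk1d/d uteri. Only Wnk1d/d replicate 4 fell within the range of the controls, and the other 4 were above it. *Cfp* missed it too (log2 fold change 0.13, SE 0.08, adjusted p = 0.25 by limma).

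Among the inhibitors, *Cfi* (chromosome 3, 129835884 to 129875332, plus strand) encodes factor I, the protease that cuts C3b and C4b and thereby ends convertase activity. It had 8.92, 16.0, 18.8 and 14.6 FPKM in the controls and 48.6, 40.5, 38.4, 33.4 and 38.0 FPKM in the Wnk1d/d uteri. The lowest Wnk1d/d library was 1.77 times the highest control. Means rose from 14.6 ± 4.16 FPKM (SD, n = 4) to 39.8 ± 5.56 FPKM (SD, n = 5) (log2 fold change 1.42, SE 0.19, adjusted p = 0.0028 by limma), with p = 0.00794 by the exact permutation test, the smallest that 4 against 5 libraries allow. *Cfi* had the smallest adjusted p of the 8, and it stayed at 0.0033 to 0.0099 in the 9 fits without 1 library. Its spread among the Wnk1d/d uteri was small, with a coefficient of variation of 13.98% where *C3* had 47.2% and *Cfb* 53.3%.

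*Cd55* (chromosome 1, 130439027 to 130462744, minus strand) encodes decay-accelerating factor, a membrane protein that takes convertases apart. It had 70.2, 65.2, 78.7 and 71.4 FPKM in the controls and 61.5, 90.7, 37.2, 42.3 and 44.0 FPKM in the Wnk1d/d uteri. Of the Wnk1d/d libraries, 4 were below all controls and 1, replicate 2, was above all of them. *Cd55* missed the threshold (log2 fold change -0.44, SE 0.23, adjusted p = 0.19 by limma, exact permutation p = 0.135), and 1 library decided this: without Wnk1d/d replicate 2 the log2 fold change was -0.64 and the adjusted p 0.013, within a range of 0.013 to 0.38 over all alternatives. With library weights the adjusted p was 0.037, with a ratio of means of 0.772 that did not meet the criterion. Of its 75-base windows, 9.39% also occur in *Cd55b*.

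*Cd59a* (chromosome 2, 104095801 to 104115354, plus strand) encodes the membrane inhibitor of the pore. It had 14.1, 19.2, 13.7 and 21.2 FPKM in the controls and 19.6, 13.5, 10, 15.8 and 16.6 FPKM in the Wnk1d/d uteri. The ranges overlapped and the test was not passed (log2 fold change -0.17, SE 0.19, adjusted p = 0.53 by limma). Its near copy *Cd59b*, which shares 1.73% of the 75-base windows, had 2.89 FPKM on average in Wnk1f/f and 3.43 FPKM in Wnk1d/d uteri (limma adjusted p = 0.4).

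**Figure D2:**
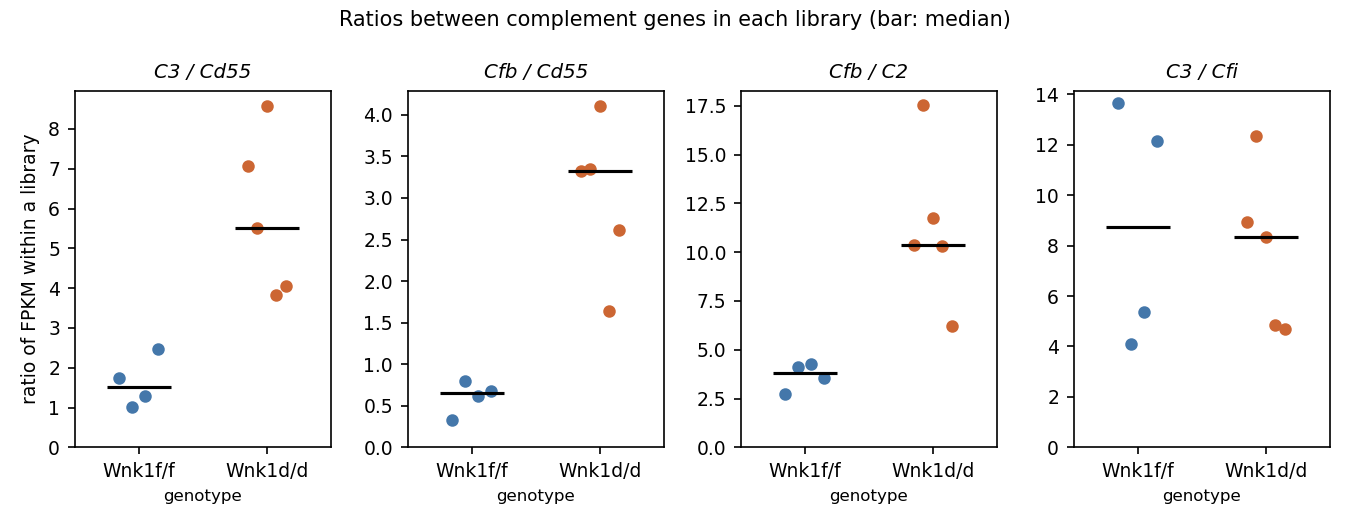
Ratios of FPKM between pairs of complement genes within each library, for Wnk1f/f (blue, n = 4) and Wnk1d/d (orange, n = 5) uteri, with medians as bars. The genotypes do not overlap for *C3* over *Cd55*, *Cfb* over *Cd55* and *Cfb* over *C2*, and they overlap for *C3* over *Cfi* (4.12 to 13.7 and 4.7 to 12.3).

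The plot of ratios within libraries sets activating components against inhibitors. The mean log2(FPKM + 1) of the 5 activating genes minus that of the 3 inhibitors was 0.28 to 0.52 in the Wnk1f/f and 0.30 to 1.2 in the Wnk1d/d uteri. Only Wnk1d/d replicate 4, at 0.30, fell within the range of the controls, and the other 4 were at 0.75 or more. No test was made of this score. The following ratios were chosen after their values were seen and are descriptions.

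Set against *Cd55*, *C3* had a median ratio of 1.51 in Wnk1f/f (1.01 to 2.48) and 5.51 in Wnk1d/d uteri (3.82 to 8.59). *Cfb* went from being the less abundant transcript in every control (median ratio to *Cd55* of 0.649) to being the more abundant in every Wnk1d/d uterus (median 3.33, 1.63 to 4.1). Set against *Cfi*, which also rose, *C3* had overlapping ratios with medians of 8.76 and 8.33. Within the neighbouring pair, *Cfb* was 2.75 to 4.29 times *C2* in the controls and 6.2 to 17.5 times in the Wnk1d/d uteri. The genes that rose came from both roles.

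By mean FPKM the order in the Wnk1f/f uteri was *C3*, *Cd55*, *C4b*, *Cfb*, *Cd59a*, *Cfp*, *Cfi* and *C2*. In the Wnk1d/d uteri it was *C3*, *Cfb*, *Cd55*, *C4b*, *Cfi*, *Cfp*, *Cd59a* and *C2*. In each genotype the ranges of all neighbours but 1 pair overlapped. That pair was *Cfb* above *Cd59a* in the controls and *Cfi* above *Cfp* in the Wnk1d/d uteri. Within single libraries, *C3* was above *Cd55* and *Cd55* above *C4b* in 4 of 4 controls, but *Cd59a* above *Cfp* in 2 of 4. In the Wnk1d/d uteri *C3* was above *Cfb* and *Cfb* above *Cd55* in 5 of 5 libraries, but *Cd59a* above *C2* in 1 of 5. *C3* lay at the percentile 95.5 of the tested genes by mean FPKM in the controls and at 98.6 in the Wnk1d/d uteri. *Cfb* moved from 83.3 to 97.0 and *Cfi* from 53.1 to 81.1.

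**Figure D3:**
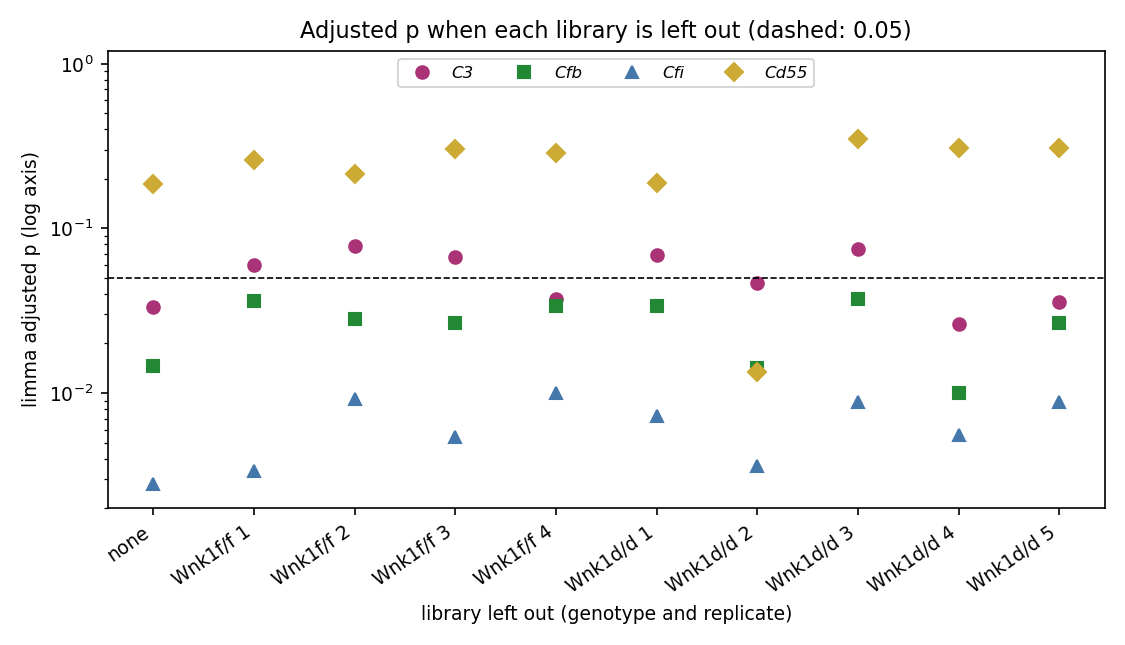
Limma adjusted p (log axis) of *C3*, *Cfb*, *Cfi* and *Cd55* with all 9 libraries and with each library left out in turn, with 0.05 as a dashed line. *Cfb* (0.01 to 0.037) and *Cfi* (0.0033 to 0.0099) stay under the line, *C3* is above it in 5 of the 9 fits, and *Cd55* is under it only without Wnk1d/d replicate 2.

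Of 51 further genes of the complement pathway, 46 were in the table and 26 were tested. Of these 26, 1 rose and 3 fell, and 1 was higher and 6 were lower at an adjusted p under 0.05 without the criterion on the ratio (11.1% and 11% of all genes tested). Their median log2 fold change was -0.14. The plot of fold changes by role sets them beside the 8 genes.

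The gene that rose was *C4bp*, whose product binds C4b and helps factor I to cut it. It had 0.46, 2.44, 1.51 and 1.81 FPKM in the controls and 8.51, 5.96, 3.96, 5.28 and 4.68 FPKM in the Wnk1d/d uteri, without overlap (log2 fold change 1.42, SE 0.26, adjusted p = 0.0079 by limma). Of 6 fluid-phase inhibitors tested it alone rose and *Vtn* alone fell. *Serping1*, which encodes the C1 inhibitor, was the most abundant, with 293 ± 16.2 FPKM (SD, n = 4) in Wnk1f/f and 242 ± 25.4 FPKM (SD, n = 5) in Wnk1d/d uteri (limma adjusted p = 0.053). *Vtn* (vitronectin), which blocks pore assembly, fell from 6.67 ± 2.24 FPKM (SD, n = 4) to 3.27 ± 0.344 FPKM (SD, n = 5) (log2 fold change -0.81, SE 0.17, adjusted p = 0.012 by limma). Its highest value, 9.86 FPKM, was in Wnk1f/f replicate 4, the library with the liver transcripts, and the other controls had 4.7 to 6.34 FPKM. Without that library the control mean was 5.6 FPKM and the log2 fold change -0.62 (limma adjusted p = 0.015).

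Of 7 genes of the classical start tested by limma, 0 rose (0 also at an unadjusted p under 0.05) and 3 were lower at an adjusted p under 0.05. *C1qa*, *C1qb* and *C1qc*, the chains of the recognition protein made by macrophages, had mean ratios of 0.955, 0.962 and 0.963 (limma adjusted p of 0.91 or more). The proteases of the same complex, *C1ra*, *C1rb* and *C1s*, were lower in every Wnk1d/d library than in any control, with adjusted p of 0.0068, 0.014 and 0.006, but at ratios of 0.682, 0.675 and 0.688 they narrowly missed the criterion on the ratio of means. *C1s*, the most abundant of them, had 138 ± 13.1 FPKM (SD, n = 4) in Wnk1f/f and 95.0 ± 8.46 FPKM (SD, n = 5) in Wnk1d/d uteri. *C1ra* and *C1rb* are near copies, and their fragments may have been split between them.

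Among the membrane inhibitors, *Susd4* fell from 5.18 ± 1.11 FPKM (SD, n = 4) to 3.18 ± 0.916 FPKM (SD, n = 5) (log2 fold change -0.57, SE 0.18, adjusted p = 0.049 by limma), a call that was kept in 7 of 20 alternatives and in 2 of the 9 fits without 1 library. *Cr1l*, the mouse counterpart of membrane cofactors, was level, with 21.3 and 21.4 FPKM. Among the receptors, *Itgax*, a subunit of a receptor for C3 fragments on dendritic cells and macrophages, fell from 4.33 ± 1.95 FPKM (SD, n = 4) to 1.40 ± 0.256 FPKM (SD, n = 5) without overlap (log2 fold change -1.08, SE 0.23, adjusted p = 0.012 by limma). *C3ar1*, which encodes the receptor of the C3a peptide, had means of 6.15 and 4.82 FPKM (limma adjusted p = 0.41). *C5ar1* was higher in every Wnk1d/d library, at 1.33 against 0.913 FPKM on average, and did not pass (limma adjusted p = 0.062).

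**Figure D4:**
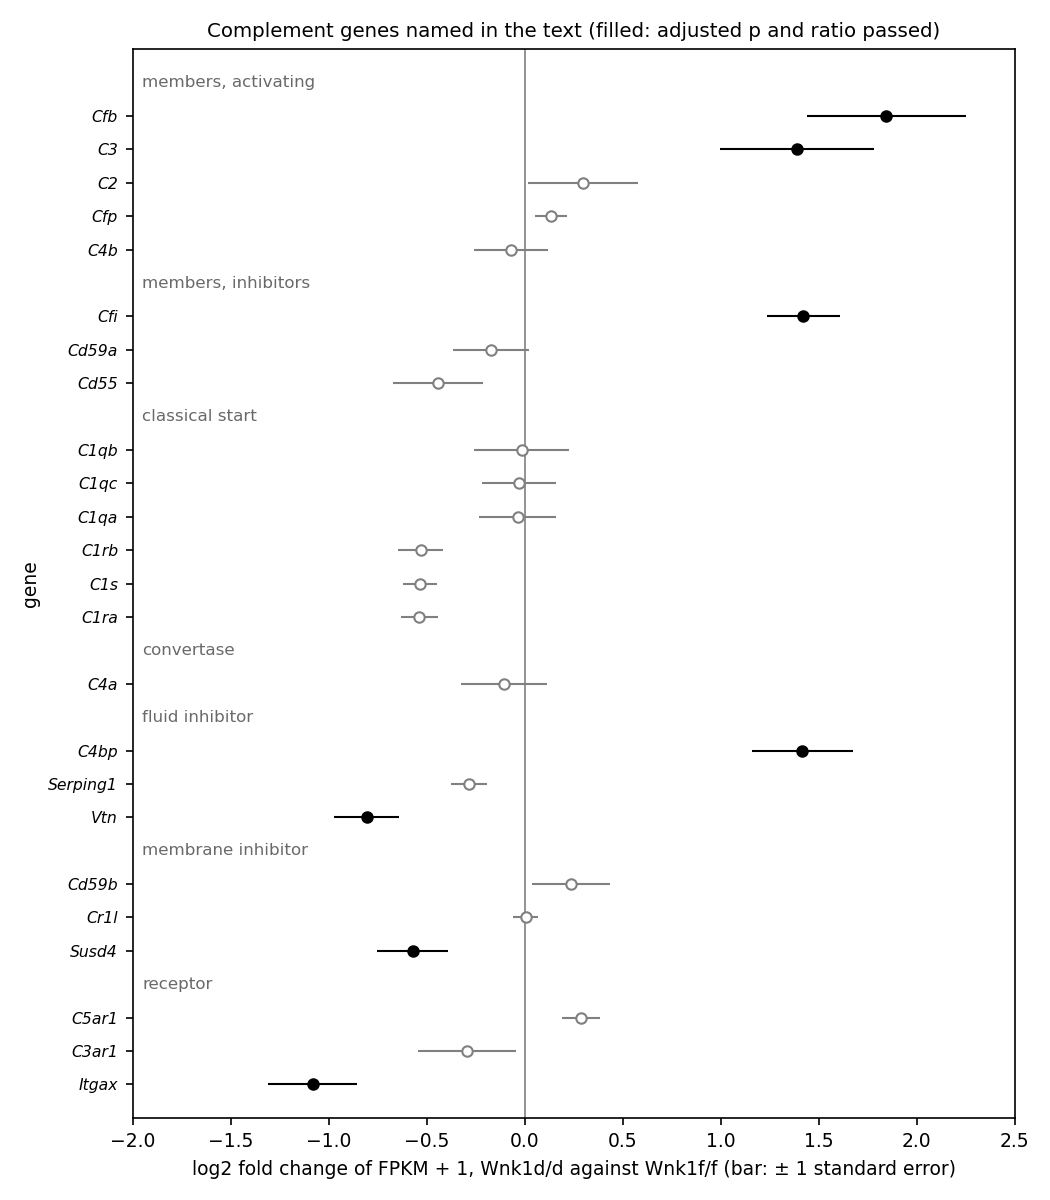
Log2 fold change of FPKM + 1 (Wnk1d/d, n = 5, against Wnk1f/f, n = 4) for the 8 complement genes and the further complement genes named in the text, grouped by role, with bars of 1 standard error and filled points for genes past both criteria. *Cfb*, *C3*, *Cfi* and *C4bp* lie at 1.39 to 1.85, the C1 proteases near -0.54, and *Itgax*, *Vtn* and *Susd4* at -1.08 to -0.57.

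Several complement genes that are made mainly in the liver were near 0 and were not tested. They are named here after their values were seen. In Wnk1f/f replicate 4 *Hc*, *C8a* and *C8b* of the pore, *Cpn2* and *Mbl2* had 0.5, 0.4, 0.36, 0.39 and 0.69 FPKM, where the other 8 libraries had at most 0.08, 0.08, 0.06, 0.02 and 0.11 FPKM. *C9* of the pore, which the liver also makes and which was not tested either, went the other way, with 0.66 FPKM in this library and 0.93 to 1.21 FPKM in the other controls. The same library had the highest *C3*, *C2*, *C4b* and *Cd59a* of the controls, but not the highest *Cfb*, *Cfi*, *Cfp* or *Cd55*. For *Cfb* and *Cfi* the ratio of means was 4.09 and 2.73 without it. For the other controls, with liver markers at no more than 30.2 in sum, *C3* was 65.7 to 122 FPKM. In Wnk1d/d replicates 1 to 5 the liver markers summed to 112, 75.1, 60.65, 36.9 and 35.45 FPKM. Replicates 4 and 5 were lowest there, as they were for *C3* and *Cfb*. The part of liver transcripts in these results was not tested.

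Other cell types were read from lists of markers. All 10 smooth muscle markers rose, and their summed FPKM was 3007 to 6766 in Wnk1f/f and 7571 to 14254 in Wnk1d/d uteri. Of 12 epithelial markers 3 rose, with sums of 1220 to 1801 and 1370 to 2071. Of 10 endothelial markers 7 fell, with sums of 493 to 536 and 207 to 415, and of 10 stromal markers 3 rose and 3 fell. Without the criterion on the ratio, 3 stromal markers were higher and 6 lower at a limma adjusted p under 0.05. The stromal sums were 2641 to 3128 and 2764 to 3345. Among 10 macrophage markers tested 1 rose and 1 fell, with sums of 253 to 390 and 295 to 376. The macrophage sums overlapped only through Wnk1f/f replicate 4 (390), as the other controls had 253 to 292. By limma, 0 of 20 liver, 0 of 2 neutrophil, 0 of 7 lymphocyte and natural killer and 0 of 3 red cell markers tested changed, and 2, 0, 1 and 0 of them had an unadjusted p under 0.05. The liver result includes Wnk1f/f replicate 4, with its sum of 310. In the other controls the liver sum was 28.9 to 30.2, below every Wnk1d/d library (35.45 to 112). Part of this difference lay in *Serpina1c*, the liver marker with the highest mean FPKM, at 2.55 to 4.43 FPKM in these controls. It had 36.6, 18.2, 15.3, 7.12 and 8.93 FPKM in Wnk1d/d replicates 1 to 5, and 20.1 FPKM in Wnk1f/f replicate 4. The sums therefore do not show that liver markers in general were higher in every Wnk1d/d library. The sums were not tested. Neutrophil markers summed to 1.97 to 9.23 FPKM in Wnk1f/f and 2.42 to 7.28 FPKM in Wnk1d/d uteri, with *Camp* at 0 in every library.

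Within the Wnk1d/d uteri the order of the libraries by *C3* and by *Cfb* was the reverse of their order by summed smooth muscle markers. Replicate 2 had the lowest smooth muscle sum (7571) with the highest *C3* and *Cfb*, and replicate 4 the highest sum (14254) with the lowest of both. The epithelial sum was 2071, 1791, 1728, 1489 and 1370 in replicates 1 to 5, with replicates 4 and 5 lowest as for *C3* and *Cfb*. Among the controls *C3* was highest in the library with the lowest smooth muscle sum (3007, replicate 4) and lowest in replicate 2 (4385). The controls did not follow the reverse order throughout. Replicate 1 had their highest smooth muscle sum (6766), with *C3* at 122 FPKM, above replicates 2 and 3 (65.7 and 101 FPKM). The order within the Wnk1d/d uteri was noticed after the values were seen, and the part of tissue composition in these results was not tested.

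Among the genes whose log2 FPKM across the 9 libraries was most like that of *C3* were *Rbbp7* (Pearson r = 0.963), *Rab32* (0.963), *Slc30a7* (0.962) and *Chac2* (0.958). Over the 8 libraries without Wnk1f/f replicate 4 *Egfl6*, *Pdcd6ip*, *Gm5294* and *Slc30a7* were among the most alike (0.969 to 0.98). *Cfb*, with r = 0.845, was in place 203 among the genes tested and *Cfi*, with r = 0.736, in place 632, while *C4b*, *Cd55* and *Cd59a* had r of -0.06, -0.06 and -0.24. The libraries form 2 groups by genotype, so these values describe likeness over both groups and are given without a test.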

How the data were processed

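Uterine RNA of 9 mice (4 Wnk1f/f, 5 Wnk1d/d) was sequenced in paired ends. The authors used TopHat for alignment to mm10 (TopHat2 2.0.4 in the submitters' processing notes) and deposited FPKM from Cufflinks (2.0.2 in the same notes) for 31274 gene symbols, 1 column per mouse. The gene annotation is not given in the sources used here. Columns were matched to mice by their labels.

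From the deposited FPKM, log2(FPKM + 1) was compared with limma 3.58.1 in R 4.3.3 (with trend, unpaired, two-sided) over those 14728 genes whose mean FPKM exceeded 1 in either genotype, with Benjamini-Hochberg adjustment over all of them. Fold changes on this scale understate those of low genes. Single genes were also compared by exact two-sided permutation tests (smallest p possible 0.00794). The limma step was tested on simulated data. Low FPKM values of 18 sparse entries were whole multiples of their smallest (within 0.1) in 61.4% of cases, and no depth was read from them. Positions come from GENCODE M21 on mm10, promoters from RefSeq (GRCm38.p6). Python 3.11.15, pandas 2.3.3 and NumPy 2.4.6 were used.

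The complement genes, the lists and the ratios were chosen with earlier results of these data known. Named were all 8 genes, further complement genes past both criteria, those described by role, and genes among the 5 most like *C3*. Single markers were named where they are described with their lists. Results for some genes are not reported here. Replicate numbers were read from the titles and mark different mice. Alternatives were other pseudocounts (0.1, 0.01), no filter or one at 5 FPKM, quantile normalization, median scaling, other variance models, a replicate block, a ratio of 2, and leaving out each library.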

Additional observations from a re-analysis of the deposited data

Results flagged for a closer look

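Among 24 groups of libraries, those of the 8 complement genes and of the 4 further complement genes that changed, 2 held a library farther from its group than Dixon's 95% value allows, where chance gives about 1 in 20. *Cfb* had 22.8 FPKM in Wnk1f/f replicate 1 and 48.2 to 52.3 FPKM in the other controls, and without this library the limma adjusted p of *Cfb* was 0.036 (0.01 to 0.069 over all alternatives). *Cfp* had 13.9 FPKM in Wnk1f/f replicate 4, the library with the liver transcripts, and 16.3 to 16.8 FPKM in the other controls.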

How the results depend on the processing

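Direction and call were the same in all 20 alternatives for *C2*, *Cfp* and *Cd59a*, and in 19 of 20 for *Cfb* and *Cfi*. The rise of *C3* was past the threshold in 12 of 20. It had an adjusted p of 0.052 without a filter on low values, where more genes were tested (log2 fold change 1.39), and of 0.064 with quantile normalization (1.24), and its log2 fold change was 1.15 to 1.62 in the fits without 1 library. The sign of *C4b*, which passed in no setting, turned with library weights (0.075) and without Wnk1f/f replicate 4 (0.083), with a range of -0.27 to 0.083 without 1 library. *Cd55* ranged from -0.64 to -0.32. The exact permutation tests stayed on the same side of 0.05 for all 8 genes with mean FPKM and without Wnk1f/f replicate 4.

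Without 1 library, 2 to 3 of the 8 genes rose and 0 to 1 fell, and of the further complement genes 1 to 2 rose and 2 to 6 fell. The fall among the 8 was that of *Cd55*, without Wnk1d/d replicate 2, which also gave 2 rises and 6 falls of further genes, and 6 also fell without Wnk1f/f replicate 3. Those that fell numbered 1 with a filter at 5 FPKM, 5 with quantile normalization and 5 with library weights. Over all genes, 750 rose and 763 fell. With a ratio of 2 these were 332 and 218, and without 1 library 520 to 866 and 499 to 1004, the lowest count of falls being without Wnk1d/d replicate 3.

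The replicate numbers mark different mice, and same-numbered libraries did not deviate together (r of -0.27 to 0.02 over genes). With the replicate block, fitted to 8 libraries without Wnk1d/d replicate 5, 152 genes rose and 105 fell, among them 0 of the 8 complement genes and 0 of the further ones in either direction. *C3* (1.56), *Cfb* (1.94) and *Cfi* (1.44) kept their direction with adjusted p of 0.11, 0.069 and 0.052. FPKM gives no depth, so limits of detection are not known.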
